A study of Homo sapiens with 12 samples.

Results

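The genes described here are 40 listed genes of translation and amino acid supply, out of 57820 genes in the deposited tables. They were taken by name from a fixed list, by matching each gene identifier to its symbol. The rule uses no measured value, though the list was drawn up with earlier results of these data known. The list holds 20 cytosolic aminoacyl-tRNA synthetase genes, 2 genes for scaffold proteins of the multi-synthetase complex (AIMP1 and AIMP2), and 18 genes of amino acid supply and the stress response around ATF4. All 40 were matched and all 40 passed the filter on low counts in every comparison.

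All RNA came from T47D-MTVL, a line made from the luminal breast cancer line T47D by adding 1 copy of a luciferase reporter under the MMTV promoter. The 12 libraries were made from cells kept in charcoal-treated serum without the progestin R5020. Poly(A) RNA came from cells transfected with a PADI2 siRNA (siPADI2) or a control siRNA (siCtrl). It also came from cells that expressed an HA-tagged RNA polymerase II (RNAP2) resistant to alpha-amanitin, in its R1810A form or as wild type (WT). Both RNAP2 groups had 24 hours of expression and then 12 hours in 6 µg/ml alpha-amanitin, which shuts off the endogenous polymerase, so WT libraries carry the tagged polymerase and the toxin as well. Chromatin-associated RNA was taken from siPADI2 and siCtrl cells. Each of the 6 groups had 2 libraries. The labels do not say whether these were separate cultures. A p-value here therefore reflects library-to-library spread alone, and that spread may be technical.

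PADI2 belongs to the peptidylarginine deiminases, which convert arginine residues of proteins to citrulline. R1810 is an arginine of the carboxy-terminal domain of the large RNAP2 subunit, and in the R1810A form it is replaced by alanine. The comparisons ask how the mRNA of these genes differed after PADI2 siRNA, how it differed with the R1810A polymerase, and whether the siPADI2 effect was the same in RNA still bound to chromatin.

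An aminoacyl-tRNA synthetase joins an amino acid to its tRNA, the step that fixes which amino acid a codon stands for. When charged tRNA runs short, the kinase GCN2 phosphorylates the translation factor eIF2. Bulk translation then slows, while the mRNA of the transcription factor ATF4 is translated more. ATF4, often as a dimer with a C/EBP protein such as CEBPB or CEBPG, binds C/EBP-ATF response elements near genes for amino acid synthesis, amino acid transport and tRNA charging. ATF4 protein is controlled largely at translation, so its mRNA level is not a measure of its activity. Breast cancer cells are known to differ in how far they make serine through PHGDH and PSAT1 rather than take it up.

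Total counts, in units of 1e6, lay between 112.54 and 127.47 in siPADI2 and between 44.32 and 132.76 in siCtrl poly(A) libraries. They lay between 122.25 and 127.19 in R1810A and between 128.55 and 130.81 in WT libraries, but only between 2.72 and 2.80 in siPADI2 and between 6.67 and 7.04 in siCtrl chromatin libraries. The luminal label was checked with 10 marker genes, whose summed level was 6943 to 7320 CPM (counts per 1e6 counts of the library) in siPADI2 and 10353 to 11534 CPM in siCtrl poly(A) RNA. In the RNAP2 experiment that sum was 7213 to 8067 CPM in R1810A and 10571 to 11283 CPM in WT libraries. The luminal markers were thus high in every poly(A) library, and lower in siPADI2 and R1810A. In chromatin RNA the luminal sum was 1324 to 1798 CPM in siPADI2 and 2451 to 2613 CPM in siCtrl. There the leukocyte sum was 98.2 to 106 CPM in siPADI2 and 67.3 to 77.4 CPM in siCtrl, and that of the 2 matched endothelial markers 11.4 to 20.2 CPM in siPADI2 and 34.7 to 42.4 CPM in siCtrl. The part of these markers in the results was not tested. The 4 leukocyte markers summed to at most 1.42 CPM in any poly(A) library, and of the fibroblast markers COL1A1 had 42.5 to 72.9 CPM and COL1A2 at most 0.0708 CPM. PADI2 itself had 1.83 and 1.88 CPM in siPADI2 against 24.0 and 22.6 CPM in siCtrl poly(A) RNA, and 8.52 and 14.2 against 34.9 and 32.5 CPM in chromatin RNA. The libraries labelled R1810A had low PADI2 as well, with 3.13 and 2.35 CPM against 48.9 and 50.7 CPM in WT libraries, although their labels name no PADI2 siRNA. Whether low PADI2 contributed to the R1810A values below was not tested.

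The core of the C/EBP-ATF response element, the sequence ATF4 dimers are known to bind, was looked up in the promoters of the members. Promoter windows from RefSeq (GRCh38.p14) run from 250 bases before to 50 bases after each gene's start and were found for 32 of the 40 members. The motif searched was TGATGNAA on either strand, which reads TTNCATCA from the other side. It occurred in 9 of the 32 windows (28.1%), against 3.62% of all 35116 windows of the same length. The list includes genes chosen for their link to ATF4, so this share is not independent of how it was drawn. Among 19 windows of other genes known as ATF4 targets the share was 36.8%, and among 14 of mitochondrial synthetases 7.14%. The windows with a match belonged to 6 synthetase genes and to CHAC1, ASNS and SLC3A2. The 30 bases around each match are shown 5′ to 3′ in the direction of the gene, with the motif in capitals.
AARS: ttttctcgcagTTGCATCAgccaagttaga
CARS: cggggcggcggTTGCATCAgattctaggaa
IARS: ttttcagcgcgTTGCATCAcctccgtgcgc
MARS: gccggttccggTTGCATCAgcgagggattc
NARS: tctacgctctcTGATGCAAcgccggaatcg
TARS: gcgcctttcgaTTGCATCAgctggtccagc
CHAC1: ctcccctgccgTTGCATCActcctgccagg
ASNS: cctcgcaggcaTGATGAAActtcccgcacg
SLC3A2: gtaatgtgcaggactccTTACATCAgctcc
In 7 of these windows the 8 bases are TTGCATCA or its reverse complement TGATGCAA. ASNS and SLC3A2 have a different base at the free position. The windows lie on the minus strand at chr16:70289675-70289704 (AARS), chr11:3057407-3057436 (CARS), chr9:92293692-92293721 (IARS), chr18:57621804-57621833 (NARS) and chr7:97872458-97872487 (ASNS). They lie on the plus strand at chr12:57488053-57488082 (MARS), chr5:33440956-33440985 (TARS), chr15:40953251-40953280 (CHAC1) and chr11:62881719-62881748 (SLC3A2). A match is a description of the letters and not a measured binding site. The motif was not found in the windows of ATF4, CEBPB, CEBPG, TRIB3, DDIT4, PHGDH, PSAT1, MTHFD2, ALDH18A1, SLC7A5, SLC1A5 and 12 further members. No window was matched for DARS, LARS, VARS, YARS, PSPH, SHMT2, PYCR1 and SLC7A11.

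Per kilobase of annotated exon, the synthetases differed widely in the 4 poly(A) libraries of the siRNA experiment. That length counts all annotated exon bases of a gene, whether or not they were expressed here. The order below therefore depends on the annotation too. AARS, which charges alanine tRNA, was highest at a mean level of 103 CPM per kilobase, with libraries between 94.6 and 111. EPRS, a single protein that charges both glutamate and proline tRNA, averaged 87.7 CPM per kilobase and GARS, the glycine enzyme, 84.9, and their libraries overlapped. NARS, the asparagine enzyme, came next at 54.9 CPM per kilobase and did not overlap with GARS. CARS, the cysteine enzyme, was lowest at 9.84 CPM per kilobase, with libraries between 8.93 and 10.9. Its annotated exons cover 10037 bases, against 3429 for FARSB. Without division by length, CARS had 89.7 to 109 CPM and FARSB 55.3 to 62.7 CPM. Most neighbours in this order overlapped over the 4 libraries, apart from the steps between AARS and EPRS, GARS and NARS, TARS and YARS, and VARS and HARS.

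After siPADI2, poly(A) RNA of the cystine transporter and of several ATF4-linked regulators rose, while PHGDH and PSAT1 of serine synthesis, the transporters SLC7A5 and SLC1A5, and DDIT4 fell. No synthetase or scaffold gene changed by more than a log2 fold change of 0.414 in either direction. Of the 18 amino acid and stress genes, 8 were higher and 5 were lower by edgeR's quasi-likelihood test at an adjusted p under 0.05. Of all 18720 genes tested, 28.8% were called higher and 27.9% lower in the same comparison. Among the 7811 genes at least as highly expressed as the lowest member, 31.2% were higher and 34.3% lower. The median log2 fold change of the 18 genes was 0.16, against 0.005 over all genes tested. Against a fold of 1.5, the test kept 4 higher (SLC7A11, TRIB3, CEBPB and CEBPG) and 2 lower (DDIT4 and PSAT1), where 8.74% and 10.1% of all genes passed.

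SLC7A11 (ENSG00000151012.9, hg19 chr4:139085251-139163503, minus strand) encodes the subunit of the xCT transporter that imports cystine in exchange for glutamate. It had 58.9 and 54.7 CPM in siPADI2 against 18.5 and 19.1 CPM in siCtrl. The groups stood far apart, with a log2 fold change of 1.59 (SE 0.0933, adjusted p = 9.1e-18), the highest of the 40 members and 3.01-fold on a linear scale. TRIB3 (ENSG00000101255.6, chr20:361261-378203, plus strand), a pseudokinase induced by ATF4 that feeds back on it, had 288 and 241 CPM in siPADI2 against 147 and 135 CPM in siCtrl. Both siPADI2 libraries lay above both siCtrl libraries, and the log2 fold change was 0.91 (SE 0.089, adjusted p = 4.7e-11).

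The C/EBP partners of ATF4 rose together. CEBPB (ENSG00000172216.4, chr20:48807376-48809212, plus strand) had 34.1 and 34.6 CPM in siPADI2 against 20.4 and 19.3 CPM in siCtrl, a log2 fold change of 0.79 (SE 0.0952, adjusted p = 3.38e-09). CEBPG (ENSG00000153879.4, chr19:33864236-33873592, plus strand) had 142 and 139 CPM in siPADI2 against 78.7 and 84.2 CPM in siCtrl, with an SE of 0.0825 and an adjusted p of 1.38e-10. The libraries of a group agreed closely for both genes and the groups did not overlap. CHAC1, an enzyme that degrades glutathione and an ATF4 target, was higher by a smaller step, with a log2 fold change of 0.52 (adjusted p = 2.19e-05). ATF4 mRNA itself (ENSG00000128272.10, chr22:39915700-39918691, plus strand) had 222 and 209 CPM in siPADI2 against 233 and 231 CPM in siCtrl. Its log2 fold change of −0.11 (SE 0.0827, adjusted p = 0.284) did not pass the test. ATF4 has 4 annotated pseudogene copies, so reads shared with them are missing from its count.

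DDIT4 (ENSG00000168209.4, chr10:74033678-74035794, plus strand) encodes REDD1, a stress-induced inhibitor of mTORC1. It had 78.1 and 85.2 CPM in siPADI2 against 193 and 174 CPM in siCtrl, the largest fall among the members, with a log2 fold change of −1.17 (SE 0.0853, adjusted p = 7e-15). The first steps of serine synthesis also fell. PSAT1 (ENSG00000135069.9, chr9:80912059-80945009, plus strand), the phosphoserine aminotransferase, had 25.01 and 23.99 CPM in siPADI2 against 40.5 and 42.2 CPM in siCtrl, a log2 fold change of −0.76 (SE 0.092, adjusted p = 4.26e-09). PHGDH (ENSG00000092621.7, chr1:120202421-120286838, plus strand), the dehydrogenase that opens the pathway, had 76.0 and 67.2 CPM in siPADI2 against 108 and 103 CPM in siCtrl. Its libraries did not overlap between groups, and the log2 fold change was −0.56 (SE 0.0844, adjusted p = 4.09e-07). PSPH, the phosphatase of the last step, had a log2 fold change of −0.09 and did not pass. PSAT1 has 4 annotated pseudogene copies, which makes its count uncertain in the same way as that of ATF4.

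Among the remaining amino acid genes, MTHFD2 (0.48), a mitochondrial folate enzyme, and ALDH18A1 (0.43) and PYCR1 (0.22), enzymes of proline synthesis, rose on the log2 scale. SHMT2, the mitochondrial enzyme that turns serine into glycine, and ASNS, which makes asparagine, had log2 fold changes of 0.18 and 0.11 and did not pass. The neutral amino acid transporters SLC7A5 (−0.32) and SLC1A5 (−0.36) fell. SLC3A2, the heavy chain that pairs with both SLC7A5 and SLC7A11, did not pass at a log2 fold change of 0.14. SLC1A5, a glutamine carrier (ENSG00000105281.8, chr19:47278140-47291851, minus strand), had 181 and 149 CPM in siPADI2 against 222 and 202 CPM in siCtrl (SE 0.09, adjusted p = 0.000919). Without siPADI2 replicate 2 the log2 fold change of SLC1A5 was −0.22 (adjusted p = 0.103), and with total counts as library sizes it was −0.18 (adjusted p = 0.0783). That scaling moved the median of all genes to a log2 fold change of 0.188 and the share of higher genes among those called to 67%, against 50.8% with TMM factors, which adjust library sizes for RNA composition. SLC7A5 then had −0.14 (adjusted p = 0.142). The PYCR1 call was lost without siPADI2 replicate 1, at 0.07 (adjusted p = 0.618), and without siCtrl replicate 2, at 0.15 (adjusted p = 0.214).

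The synthetase genes and scaffolds had small changes after siPADI2. Of the 22 genes 8 were higher and 1 lower, where 28.8% and 27.9% of all genes were. The share called higher was thus near that of all genes, and the share called lower was below that of all genes. Log2 fold changes lay between −0.356 and 0.414 with a median of 0.0782, against 0.005 over all genes tested. None of the 22 passed the test against a fold of 1.5. Both scaffold genes rose, AIMP1 with 0.41 and AIMP2 with 0.34. Among the enzymes HARS (0.35), LARS (0.32), KARS (0.26), CARS (0.24), IARS (0.23) and AARS (0.21) rose, and they charge the tRNAs for histidine, leucine, lysine, cysteine, isoleucine and alanine. SARS, the serine enzyme, was the one that fell, at −0.36. Without siCtrl replicate 1 or without siPADI2 replicate 1, fewer were called higher, as also among all genes. Total counts as library sizes called 7398 of all 18720 genes higher and 3636 lower, and moved the median of all genes to 0.188. Under that scaling 15 of the 22 were called higher, no synthetase was called lower and SARS had −0.17 (adjusted p = 0.0599). The number called lower was 3 without siCtrl replicate 1 and 5 after a correction for the GC content of genes, described with the chromatin values. AARS, close to the threshold at an adjusted p of 0.0312, was not called when any 1 of the 4 libraries was left out, with adjusted p between 0.0647 and 0.121. CARS, IARS and KARS each lost their call without 1 or more of the libraries siCtrl replicate 1, siPADI2 replicate 1 and siPADI2 replicate 2. Their log2 fold changes were 0.21 for CARS without siPADI2 replicate 1, 0.20 and 0.19 for IARS without siCtrl replicate 1 and siPADI2 replicate 1, and 0.18 and 0.23 for KARS without siCtrl replicate 1 and siPADI2 replicate 2.

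**Figure D1:**
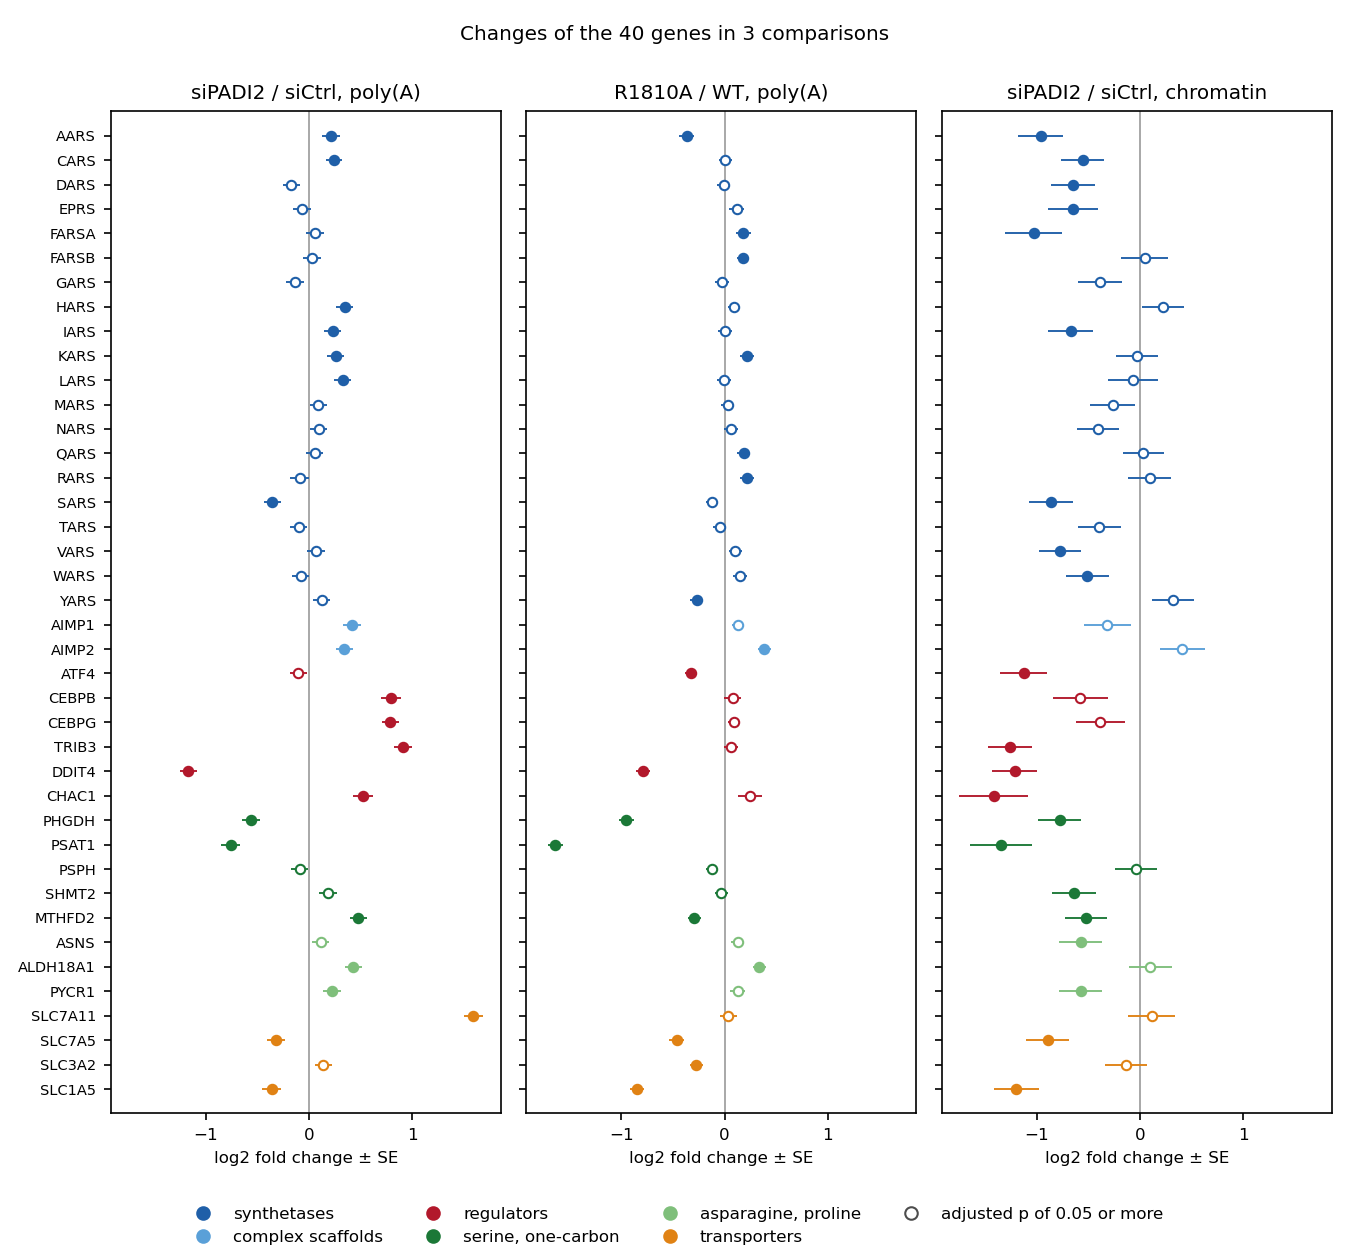
Log2 fold change with its SE (x axis) of each of the 40 genes (rows) in the siPADI2 poly(A), R1810A poly(A) and siPADI2 chromatin comparisons; filled points were called at an adjusted p under 0.05, and colours mark the functional subgroup. The synthetases lie near 0 in both poly(A) panels, SLC7A11 stands out at 1.59 after siPADI2, and 21 of the 40 genes are called lower in the chromatin panel, before the GC correction described in the text.

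With the R1810A polymerase, PHGDH, PSAT1 and MTHFD2 of the serine and folate genes, the transporters SLC7A5, SLC3A2 and SLC1A5, DDIT4 and ATF4 fell. PSPH (−0.12) and SHMT2 (−0.03) of the serine genes did not pass, nor did the regulators that rose after siPADI2. Of the 18 amino acid and stress genes, 1 was higher and 8 were lower, where 22.6% and 24.3% of all 19202 genes tested were called higher and lower. Among the 11267 genes at least as highly expressed as the lowest member, 26.8% were higher and 29.3% lower. The median log2 fold change of the 18 was −0.0764, against −0.0209 over all genes tested. Against a fold of 1.5, PSAT1, PHGDH, SLC1A5 and DDIT4 were lower and none was higher, where 5.42% of all genes passed as lower and 5.54% as higher.

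PSAT1 had 13.8 and 15.2 CPM in R1810A against 44.2 and 46.1 CPM in WT libraries, the largest change of any member in this comparison. Its log2 fold change was −1.64 (SE 0.0708, adjusted p = 1.9e-09). PHGDH had 55.7 and 63.0 CPM in R1810A against 110 and 120 CPM in WT libraries, a log2 fold change of −0.95 (SE 0.072, adjusted p = 8.79e-07). Both genes were lower in each R1810A library than in either WT library. SLC1A5 had 108 and 116 CPM in R1810A against 194 and 209 CPM in WT libraries, with a log2 fold change of −0.85 (SE 0.0667, adjusted p = 3.51e-07). DDIT4 had 45.6 and 51.2 CPM in R1810A against 81.4 and 86.2 CPM in WT libraries, with a log2 fold change of −0.79 (SE 0.0676, adjusted p = 9.24e-07). Here too the groups did not overlap.

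ATF4 mRNA was lower in this experiment, with 150 and 154 CPM in R1810A against 190 and 191 CPM in WT libraries. The log2 fold change of ATF4 was −0.33 (SE 0.0597, adjusted p = 0.000553). SLC7A5 (−0.46), MTHFD2 (−0.29) and SLC3A2 (−0.27) also fell on the log2 scale. ALDH18A1, the enzyme that begins proline synthesis from glutamate, was the one amino acid gene that rose, with 242 and 264 CPM in R1810A against 197 and 203 CPM in WT libraries. Its log2 fold change was 0.34 (SE 0.0668, adjusted p = 0.00101). Without R1810A replicate 1, the number of these 18 genes called higher was 2. SLC7A11 had 11.10 and 12.41 CPM in R1810A against 11.02 and 11.89 CPM in WT libraries, so the groups overlapped, and its log2 fold change of 0.04 had an adjusted p of 0.754. TRIB3 (0.06), CEBPB (0.08), CEBPG (0.09) and CHAC1 (0.24) did not pass either.

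Of the 22 synthetase and scaffold genes, 6 were higher and 2 were lower in R1810A, where 22.6% and 24.3% of all genes were. The share called higher was thus near that of all genes, and the share called lower was below it. The median log2 fold change of the 22 was 0.0751, against −0.0209 over all genes tested, and none passed a fold of 1.5. AIMP2 was the highest, with 48.2 and 52.7 CPM in R1810A against 38.2 and 39.2 CPM in WT libraries, a log2 fold change of 0.38 (SE 0.0636, adjusted p = 0.000263). KARS, which charges lysine tRNA, had 174 and 189 CPM in R1810A against 152 and 160 CPM in WT libraries (log2 fold change 0.22, SE 0.0657, adjusted p = 0.0158). RARS, the arginine enzyme, had 151 and 167 CPM in R1810A against 136 and 139 CPM in WT libraries (log2 fold change 0.22, SE 0.0652, adjusted p = 0.0152). QARS, FARSA and FARSB, the glutamine enzyme and the subunits of the phenylalanine enzyme, each rose by a log2 fold change of 0.18. AARS (−0.37) and YARS (−0.27), the alanine and tyrosine enzymes, fell. The smaller rises depended on single libraries. The number called higher was 1 without WT replicate 1 and also 1 without R1810A replicate 2. KARS then had log2 fold changes of 0.18 and 0.15 (adjusted p = 0.232 and 0.102), and RARS 0.20 and 0.14 (adjusted p = 0.162 and 0.109). FARSA, FARSB and QARS had adjusted p of 0.346, 0.128 and 0.327 without WT replicate 1, and 0.317, 0.112 and 0.116 without R1810A replicate 2. FARSB also lost its call without WT replicate 2 (adjusted p = 0.0538).

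**Figure D2:**
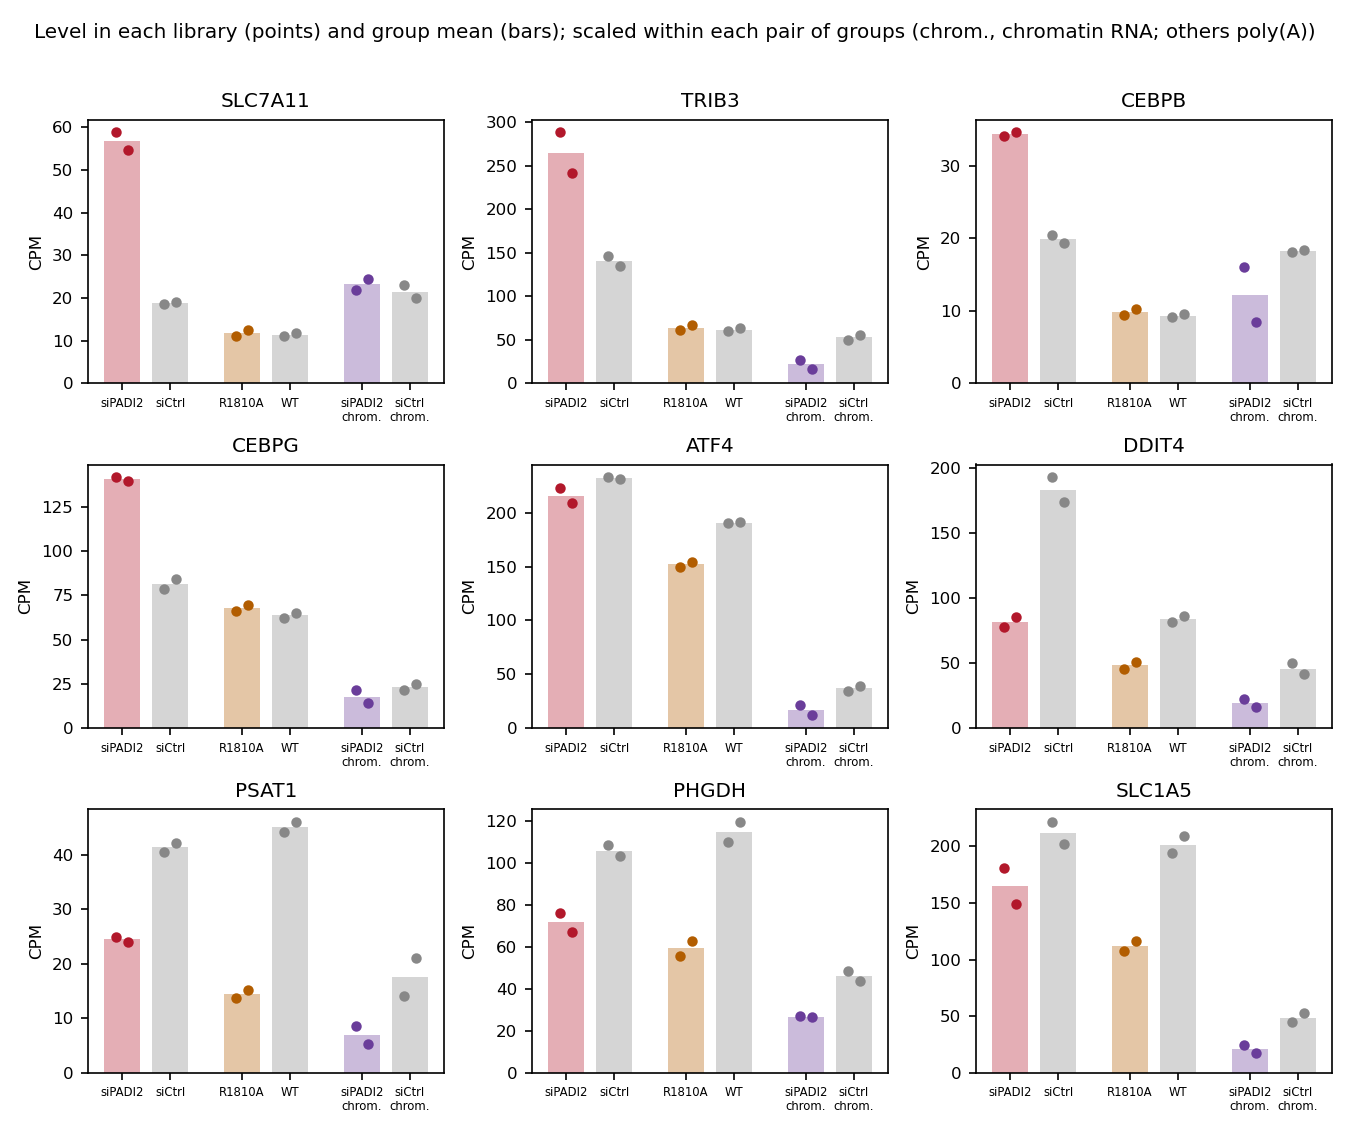
Level in CPM (y axis, linear, scaled within each experiment) in each of the 12 libraries (points) with group means (bars) for 9 genes; groups run siPADI2, siCtrl, R1810A, WT, siPADI2 chromatin and siCtrl chromatin. SLC7A11 has 58.9 and 54.7 CPM in siPADI2 poly(A) RNA, against 18.5 and 19.1 CPM in siCtrl, while in chromatin RNA its groups overlap, and PSAT1 is lower in each siPADI2 or R1810A library than in its own controls in all 3 experiments.

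Both poly(A) comparisons used separate libraries, so their effects could be set against each other in a joint fit of all 8. KARS, AIMP2 and ALDH18A1 were called higher in both, and DDIT4, PHGDH, PSAT1, SLC7A5 and SLC1A5 lower in both. These are 3 and 5 of 40 members, where 15.2% and 16.2% of the 18260 genes tested in both were called higher in both and lower in both. AARS and MTHFD2 were higher after siPADI2 and lower in R1810A, as were 1.47% of those genes. Of the 18 amino acid and stress genes, 10 had effects that differed, against 26.1% of all 19884 genes in the joint fit. For 9 of the 10, the siPADI2 effect was the higher one.

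The difference, as siPADI2 effect minus R1810A effect on the log2 scale, was 1.53 for SLC7A11 (SE 0.114, adjusted p = 5.45e-07), 0.86 for PSAT1 (SE 0.102, adjusted p = 3.22e-05), 0.82 for TRIB3 (SE 0.123, adjusted p = 0.000319) and 0.75 for MTHFD2 (SE 0.104, adjusted p = 0.000121). For SLC7A11 and TRIB3 the difference came with a rise after siPADI2 and no call in R1810A. For PSAT1 it came with a fall in both experiments that was larger in R1810A. CEBPB (0.69), CEBPG (0.67), SLC1A5 (0.46), SLC3A2 (0.39) and PHGDH (0.37) also differed in that direction. DDIT4 differed in the other, at −0.40 (SE 0.107, adjusted p = 0.0128), so its fall was larger after siPADI2. The DDIT4 difference lost its call without siCtrl replicate 1, siPADI2 replicate 1, WT replicate 1 or R1810A replicate 2, at values between −0.34 and −0.29, and with total counts as library sizes (−0.26, adjusted p = 0.109). That scaling moved the median difference of all genes to 0.144 and the share of positive differences among those called to 68%, against 45.1%. SLC1A5, SLC3A2 and PHGDH lost their calls without siPADI2 replicate 1, at differences of 0.31, 0.30 and 0.27, and without siCtrl replicate 2, at 0.40, 0.34 and 0.34. SLC1A5 and PHGDH lost them also without WT replicate 2, at 0.39 and 0.29, and PHGDH without siCtrl replicate 1 or R1810A replicate 1, at 0.40 and 0.31. Without siPADI2 replicate 1 the number of differing genes was 6.

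Among the synthetases and scaffolds, 3 of 22 effects differed in this fit, a smaller share than the 26.1% of all genes. AARS had a difference of 0.56 (SE 0.0993, adjusted p = 0.000877), YARS of 0.37 (SE 0.0903, adjusted p = 0.0077) and LARS of 0.31 (SE 0.0928, adjusted p = 0.0247). All 3 were relatively higher after siPADI2. LARS was not called without siCtrl replicate 1, siPADI2 replicate 1, WT replicate 2 or R1810A replicate 1, at differences between 0.26 and 0.29. The smaller share did not hold in other fits. With no filter 6 of the 22 differed, where 3248 of all 34842 genes had positive and 2217 negative called differences. With total counts 7 differed, where 3870 and 1822 of all 19884 genes did. After the GC correction 10 differed, where 2868 and 3239 of all 19884 genes did. In these fits the share of the 22 was above that of all genes.

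**Figure D3:**
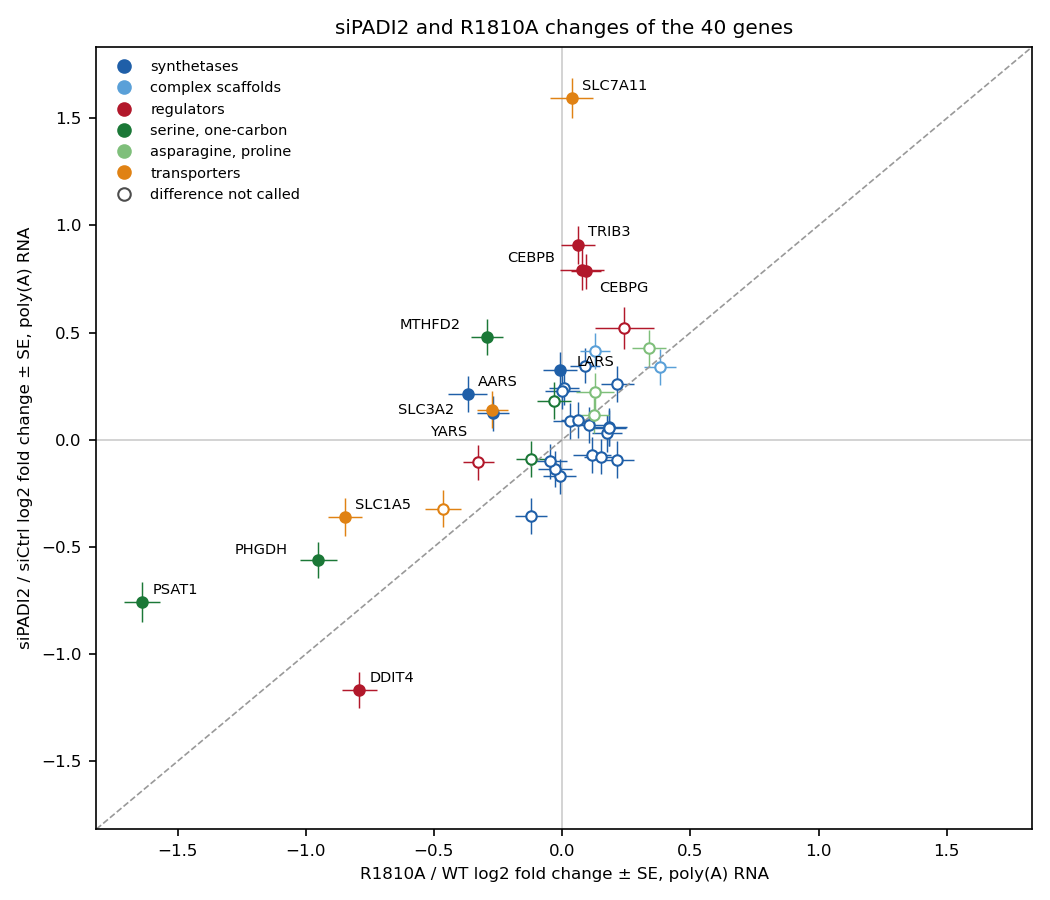
Log2 fold change of each of the 40 genes in poly(A) RNA in siPADI2 against siCtrl (y axis) and in R1810A against WT (x axis), with the line of equal effects dashed; filled points had effects that differed at an adjusted p under 0.05. SLC7A11 lies farthest above the line with a difference of 1.53, PSAT1 lies above it with falls in both experiments, and DDIT4 lies below it with a difference of −0.40.

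Chromatin-associated RNA was counted over exons as well, so it holds RNA of these genes that had not left chromatin, with introns left out. In this fraction no member was called higher after siPADI2 and many were called lower, before the GC correction described below. Of the 18 amino acid and stress genes 12 were lower, and of the 22 synthetase and scaffold genes 9 were lower, where 12.2% of all 33879 genes tested were called higher and 20.1% lower. Median log2 fold changes were −0.609 for the 18 genes, −0.393 for the 22 and 0.0278 over all genes tested. Among the 15319 genes at least as highly expressed as the lowest member, 24.9% were lower and the median was −0.0564. Against a fold of 1.5, 6 of the 18 genes (CHAC1, PSAT1, TRIB3, DDIT4, SLC1A5 and ATF4) and none of the 22 were lower, where 10.4% of all genes passed as lower and 3.03% as higher.

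These values moved with other properties of the chromatin libraries. Over 15056 expressed genes, the chromatin log2 fold change fell with the GC content of a gene (Spearman's rho −0.662, a description across genes that share libraries), against −0.0786 and −0.0892 in the siPADI2 and R1810A poly(A) comparisons. Genes below the lower GC quartile had a median log2 fold change of 0.26 and those above the upper quartile −0.82. The 18 amino acid and stress genes had a median GC content of 55.9%, the 22 synthetase and scaffold genes 47.9%, and all expressed genes 49.6%. The share of mitochondrial counts was 4.45% and 6.20% in the siPADI2 and 1.92% and 2.01% in the siCtrl chromatin libraries, and its part in the result was not tested. A fit with a GC correction, chosen after this trend was seen, brought rho among expressed genes to 0.0481. Over all 32228 genes tested with known GC content, rho was −0.179 after it. The lower calls it added were of members with low GC content: GARS (44.3%), NARS (44.7%), TARS (44.6%), AIMP1 (38.4%) and CEBPG (41.9%). QARS (55.6%) was called higher. Whether the correction went too far for such genes was not tested. Corrected values are given beside those of each gene below. With the correction 5 of the 18 genes were lower and 10 of the 22 were lower with 1 higher, where 7.0% of all genes were called higher and 9.40% lower. The corrected medians were −0.265 for the 18 genes, −0.351 for the 22 and 0.0207 over all genes tested.

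PSAT1 had 8.52 and 5.31 CPM in siPADI2 against 14.1 and 21.1 CPM in siCtrl chromatin RNA. Its log2 fold change of −1.35 (SE 0.304, adjusted p = 0.000124) became −1.66 with the GC correction (adjusted p = 0.000195). ATF4 had 21.3 and 12.4 CPM in siPADI2 against 34.5 and 39.2 CPM in siCtrl, a log2 fold change of −1.13 (SE 0.227, adjusted p = 1.28e-05), and −0.68 with the correction (adjusted p = 0.0251). The falls of PSAT1 and ATF4 thus passed in both fits, as did those of ASNS (−0.58, corrected −0.88) and MTHFD2 (−0.52, corrected −0.82). The uncorrected calls of ASNS and MTHFD2 did not hold without siCtrl replicate 1 (−0.43 and −0.44), siPADI2 replicate 1 (−0.61 and −0.61) or siPADI2 replicate 2 (−0.54 and −0.44), and that of MTHFD2 not without siCtrl replicate 5 (−0.64). CEBPG was called lower only with the correction, at −0.72.

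Other falls in chromatin RNA passed only without the correction. CHAC1, with 19 and 13 counts in siPADI2 against 113 and 83 counts in siCtrl, had 6.74 and 4.61 CPM against 18.3 and 12.2 CPM. Its log2 fold change of −1.42 (SE 0.33, adjusted p = 0.000208) became −0.55 (adjusted p = 0.275). TRIB3 had 27.0 and 17.0 CPM in siPADI2 against 49.9 and 55.6 CPM in siCtrl, and its log2 fold change of −1.26 (SE 0.214, adjusted p = 1.63e-07) became −0.37 (adjusted p = 0.187). DDIT4 had 22.7 and 16.7 CPM in siPADI2 against 49.8 and 41.8 CPM in siCtrl, and its log2 fold change of −1.22 (SE 0.218, adjusted p = 7.66e-07) became −0.28 (adjusted p = 0.358). The groups of CHAC1, TRIB3 and DDIT4 did not overlap, but their calls depended on how GC content was treated. SLC1A5 had −1.20 (adjusted p = 8.21e-07) and −0.52 with the correction (adjusted p = 0.0545), and the calls of PHGDH and SLC7A5 were lost as well, at −0.25 and −0.05. SHMT2 and PYCR1, at −0.64 and −0.58, turned to 0.09 and 0.33. Their uncorrected calls were also lost without siCtrl replicate 5 (−0.65 and −0.57), siPADI2 replicate 1 (−0.69 and −0.64) or siPADI2 replicate 2 (−0.59 and −0.51). SLC7A11, the gene with the largest rise in poly(A) RNA, had 22.0 and 24.4 CPM in siPADI2 against 23.0 and 20.0 CPM in siCtrl chromatin RNA, with overlapping groups and a log2 fold change of 0.11 (adjusted p = 0.74), and of −0.24 with the correction (adjusted p = 0.44).

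Synthetase genes called lower in chromatin RNA were FARSA (−1.03), AARS (−0.96), SARS (−0.86), VARS (−0.78), IARS (−0.67), EPRS (−0.65), DARS (−0.65), CARS (−0.56) and WARS (−0.51). With the GC correction AARS (−0.79), SARS (−0.89), IARS (−0.98), EPRS (−0.98), DARS (−0.99) and WARS (−0.59) were still lower, and GARS (−0.69), NARS (−0.71), TARS (−0.70) and AIMP1 (−0.67) were added. FARSA and CARS lost their calls, VARS turned to 0.05, and QARS was called higher at 0.50. In the uncorrected fit the number lower was 4 without siCtrl replicate 1 and 2 without siPADI2 replicate 2, where 1 was higher. AARS and SARS were called lower with any 1 library left out, whereas FARSA (−0.69, adjusted p = 0.139), VARS (−0.53, adjusted p = 0.161) and DARS (−0.35, adjusted p = 0.385) were not without siPADI2 replicate 2. EPRS, CARS, IARS and WARS lost their calls without siCtrl replicate 1, at −0.38, −0.52, −0.50 and −0.29, and without siPADI2 replicate 2, at −0.41, −0.67, −0.50 and −0.53. DARS was also lost without siCtrl replicate 1 (−0.61), EPRS and CARS without siCtrl replicate 5 (−0.92 and −0.63), and CARS and WARS without siPADI2 replicate 1 (−0.45 and −0.50). The siPADI2 chromatin libraries held as few as 20 counts for a synthetase gene (FARSA), which limits these values.

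**Figure D4:**
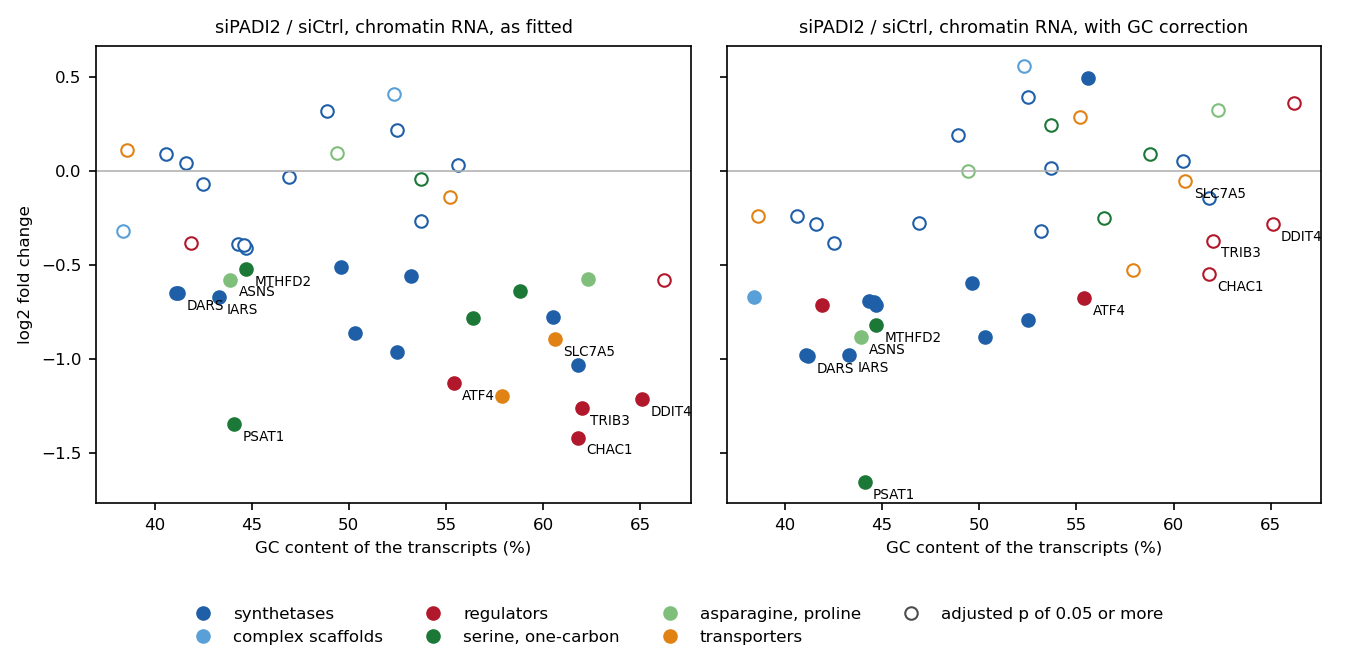
Log2 fold change in siPADI2 against siCtrl chromatin RNA (y axis) by GC content of the gene in percent (x axis) for the 40 genes, as fitted (left) and with the GC correction (right); filled points were called at an adjusted p under 0.05. On the left the high-GC genes CHAC1 (−1.42), TRIB3 (−1.26) and DDIT4 (−1.22) are filled, and on the right they are open while PSAT1 (−1.66) stays filled.

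The siPADI2 effect in chromatin RNA was then set against that in poly(A) RNA in a joint fit of 8 libraries, which differed by kit and depth as well as by fraction. The chromatin effect was the lower one in all 10 members called: 7 of the 18 amino acid and stress genes and 3 of the 22 synthetase and scaffold genes, against 8.05% of all 44615 genes. The median difference was −1.02 for the 18 genes and −0.614 for the 22, against −0.159 over all genes. With RLE size factors, the scaling DESeq2 uses, the median over all genes was 0.135, and 48.8% of all called differences were positive, against 21.2% with TMM. The GC correction gave 52.1% positive and 13.2% of all genes called.

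TRIB3 had the largest difference, chromatin minus poly(A), of −2.38 (SE 0.398, adjusted p = 3.64e-07), followed by CHAC1 with −2.15 (SE 0.445, adjusted p = 7.77e-05), SLC7A11 with −1.68 (SE 0.392, adjusted p = 0.000696) and CEBPB with −1.58 (SE 0.408, adjusted p = 0.00307). These are 4 of the genes that rose in poly(A) RNA, and none of them was called higher in chromatin RNA. With the GC correction the differences of TRIB3 (−1.35), CHAC1 (−1.13) and SLC7A11 (−1.52) were smaller and still called, and that of CEBPB (−0.45, adjusted p = 0.233) was not. AARS (−1.38), CEBPG (−1.36), FARSA (−1.31), ATF4 (−1.23), MTHFD2 (−1.19) and IARS (−1.10) also differed. AARS, CEBPG, ATF4, MTHFD2 and IARS differed with the correction as well, at −1.03, −1.26, −0.64, −1.12 and −0.999, and FARSA did not (−0.28, adjusted p = 0.648). DDIT4, with −0.27 in the uncorrected fit, had a called difference of 0.85 with the correction (adjusted p = 0.00107).

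TRIB3, CHAC1, SLC7A11 and CEBPB kept their calls with any 1 library left out. The other 6 did not: without siPADI2 poly(A) replicate 1 or 2, none of the 22 synthetase and scaffold genes and 4 of the 18 amino acid and stress genes differed. AARS was then at −1.39 and −1.36, CEBPG at −1.36 and −1.35, FARSA at −1.23 and −1.36, ATF4 at −1.19 and −1.24, MTHFD2 at −1.18 and −1.18, and IARS at −1.08 and −1.11. Without siPADI2 chromatin replicate 2, ATF4 had −0.65 and FARSA −0.73, and neither was called. Leaving out a siCtrl library or siPADI2 chromatin replicate 1 raised the numbers called, among all genes as well as among the members. The median difference of all genes moved from −0.159 to −0.434 without siCtrl poly(A) replicate 2. It lay between −0.0979 and 0.00606 without each of the others. The 22 genes then gave 5 without siCtrl poly(A) replicate 1 or siCtrl chromatin replicate 1, 7 without siCtrl chromatin replicate 5, 10 without siPADI2 chromatin replicate 1 and 16 without siCtrl poly(A) replicate 2. The 18 genes gave 11 without siCtrl chromatin replicate 5 or siPADI2 chromatin replicate 1 and 14 without siCtrl poly(A) replicate 2.

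**Figure D5:**
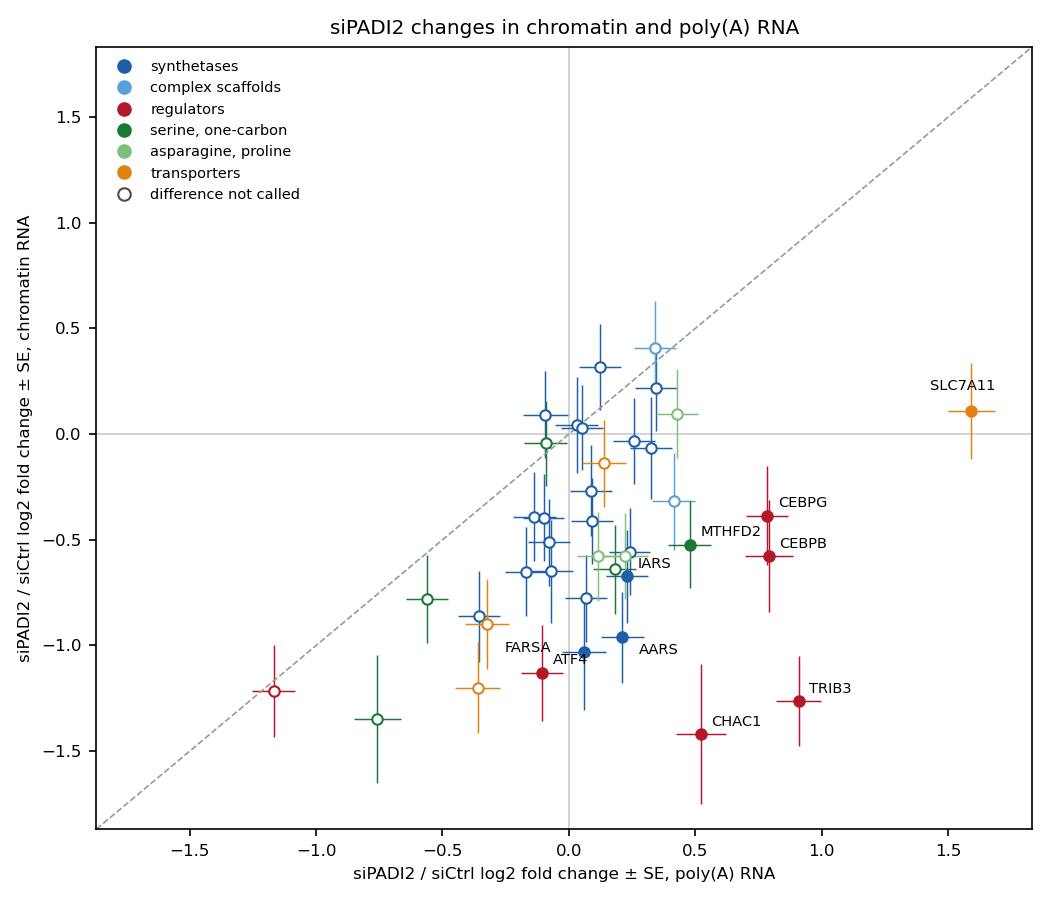
Log2 fold change of each of the 40 genes after siPADI2 in chromatin RNA (y axis) and in poly(A) RNA (x axis), with the line of equal effects dashed; filled points had effects that differed at an adjusted p under 0.05. TRIB3, CHAC1, SLC7A11 and CEBPB lie farthest below the line, with differences of −2.38, −2.15, −1.68 and −1.58 before the GC correction.

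Further genes of these pathways were counted in the same fits. Beside the counts that follow stand the shares of all genes, which were 28.8% higher and 27.9% lower after siPADI2 in poly(A) RNA, 22.6% and 24.3% in R1810A, and 12.2% and 20.1% in chromatin RNA. The medians of all genes were 0.005, −0.0209 and 0.0278. Of 17 mitochondrial synthetases, which charge tRNA inside mitochondria, 5 were higher and 5 lower after siPADI2 in poly(A) RNA, shares near those of all genes. The median log2 fold change was 0.105, with PARS2 at 0.67 and SARS2 at −0.53. Other genes on the same strand cover 53.1% of the exon bases of SARS2, so its count is uncertain. In R1810A 6 of the 17 were higher and 1 lower (median 0.0974), with CARS2 at 0.49, PARS2 at 0.48 and YARS2 at −0.18. In chromatin RNA none was higher and 7 were lower (median −0.528), led by PARS2 at −1.45 in the fit without GC correction. Of 12 genes for tRNA and complex partners, 5 were higher and 2 lower after siPADI2, 3 higher and 1 lower in R1810A, and none higher and 1 lower in chromatin RNA, with medians of 0.152, 0.0322 and −0.185.

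Of 14 genes that control eIF2, 3 were higher and 5 lower after siPADI2 in poly(A) RNA and 4 were higher and 1 lower in R1810A, with medians of −0.0282 and 0.0771. Of all genes 28.8% and 27.9% were higher and lower after siPADI2, and 22.6% and 24.3% in R1810A. The shares called higher were thus not far from those of all genes. The share called lower was above that of all genes after siPADI2 and below it in R1810A. EIF2AK3, which encodes the eIF2 kinase PERK of the endoplasmic reticulum, rose in both. It averaged 95.2 ± 4.16 CPM in siPADI2 and 56.8 ± 1.24 CPM in siCtrl, and 96.9 ± 4.06 CPM in R1810A and 55.1 ± 0.13 CPM in WT libraries (SD, n = 2 each). PPP1R15A, a subunit of the phosphatase that reverses eIF2 phosphorylation, rose by log2 fold changes of 0.47 and 0.32 after siPADI2 and in R1810A. EIF2AK4, which encodes GCN2, rose after siPADI2 at 0.39, and EIF2AK2, which encodes PKR, fell at −0.45. In chromatin RNA EIF2S2, an eIF2 subunit gene, was the one called gene of the 14, at −0.60.

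Of 24 other genes known as ATF4 targets, 21 were tested in poly(A) RNA, with 11 higher and 7 lower after siPADI2 (median 0.231) and 7 higher and 11 lower in R1810A (median −0.288). Of all genes 28.8% and 27.9% were called higher and lower after siPADI2, and 22.6% and 24.3% in R1810A. DDIT3, which encodes the stress factor CHOP, averaged 145 ± 1.17 CPM in siPADI2 and 79.3 ± 1.87 CPM in siCtrl (SD, n = 2 each), a log2 fold change of 0.87. ALDH1L2 (1.02), a mitochondrial folate enzyme, ATF3 (0.80), a stress-induced transcription factor, and MTHFD1L (0.69), also of the mitochondrial folate pathway, rose after siPADI2. NUPR1 (−1.29), STC2 (−1.25), ATF5 (−0.93) and SLC7A1 (−0.57) fell. STC2, which encodes the secreted protein stanniocalcin, averaged 27.0 ± 1.72 CPM in R1810A and 134 ± 2.94 CPM in WT libraries (SD, n = 2 each), a log2 fold change of −2.31. SLC7A1 (−1.33), the transporter of arginine and lysine, ATF5 (−0.93) and NUPR1 (−0.80) fell in R1810A too. ATF3 (0.56), MTHFD1L (0.53) and CTH (0.39) rose there. In chromatin RNA all 24 were tested, with 1 higher (ALDH1L2, 0.69) and 12 lower (median −0.593, where 12.2% of all genes were higher and 20.1% lower), led by DDIT3 (−1.52) and SLC7A1 (−1.40) in the fit without GC correction. The gene groups thus held members that rose and members that fell in the same poly(A) libraries. In bulk RNA of this kind, fewer cells of a type and less RNA per cell cannot be told apart.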

How the data were processed

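The deposited tables, 1 per library, give the fragment count of each gene, which the authors did not normalize. The submitters' processing notes name Trimmomatic, STAR and featureCounts. Per the file headers, versions 1.5.1 (poly(A)) and 1.4.6-p2 (chromatin) counted GENCODE 19 genes on hg19 with strand option 2. No option for multi-mapping reads was set, so genes with pseudogene copies have incomplete counts. Symbols came from GENCODE 29, with 52338 of 57820 identifiers matched, and GC content from its transcripts.

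For each comparison, edgeR 4.0.16 in R 4.3.3 was run on the 4 libraries concerned, with TMM factors, filterByExpr and its robust quasi-likelihood test. P-values were adjusted by Benjamini-Hochberg over all genes tested, with a threshold of 0.05. The SE was derived as the absolute log2 fold change over the root of the F statistic. Levels are CPM on TMM-scaled library sizes of the comparison and are not comparable between comparisons. Differences of effects are interaction contrasts in joint fits of 8 libraries. The test against a fold of 1.5 used glmTreat. Scripts were tested on simulated data.

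Members, gene lists and tests were chosen with earlier results of these data known. Library values are given for the 4 called members with the largest change in each direction, for ATF4 and for PADI2 (levels only), and a few further members were named after their values were seen. Alternatives were RLE size factors, total counts as library sizes, no filter, DESeq2 1.42.0, a joint fit, a replicate block and leaving out each library, where the lone library of a group is assumed to vary like the other group. The GC correction, an offset per library smoothed on GC percent over 20 bins of genes with a mean CPM of at least 5, and leaving out libraries in the differences of effects were added after the data were seen. Libraries of a group differed beyond sampling noise (chi-square over degrees of freedom 3.55 to 91.7), so none was treated as a duplicate.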

Additional observations from a re-analysis of the deposited data

Results flagged for a closer look

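The siPADI2 effect differed between chromatin and poly(A) RNA in 10 of the 40 members, by the interaction test of the joint fit of 8 libraries. Of all 44615 genes 8.05% differed, and the chromatin effect was the higher one in 21.2% of these. The difference, chromatin minus poly(A) on the log2 scale, was −2.38 for TRIB3, −2.15 for CHAC1, −1.68 for SLC7A11, −1.58 for CEBPB, −1.38 for AARS, −1.36 for CEBPG, −1.31 for FARSA, −1.23 for ATF4, −1.19 for MTHFD2 and −1.10 for IARS. With the GC correction 8 of the 10 were still called, where 13.2% of all genes were, and the values of FARSA and CEBPB were −0.28 and −0.45. In the uncorrected fit, all calls but those of TRIB3, CHAC1, SLC7A11 and CEBPB depended on single libraries. RNA fraction, library kit and sequencing depth changed together between the 2 kinds of library and cannot be told apart.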

How the results depend on the processing

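Over all 18720 genes after siPADI2 in poly(A) RNA, 5395 were higher and 5225 lower in the fit used above. These numbers were 7398 and 3636 with total counts, 5830 and 5683 with the replicate block, and 5657 and 5502 with the GC correction. Of the synthetase and scaffold genes, total counts as library sizes called 15 higher and 0 lower, the replicate block 2 lower and the GC correction 5 lower. Leaving out 1 library gave 5 to 7 higher and 1 to 3 lower. Of the amino acid and stress genes, total counts called 3 lower. Against a fold of 1.5, 0 synthetases were called in either direction in both poly(A) comparisons and 0 lower in chromatin RNA. The same test called 4 amino acid and stress genes higher and 2 lower after siPADI2, 0 higher and 4 lower in R1810A, and 6 lower in chromatin RNA. In R1810A, total counts and the joint fit each called 3 amino acid and stress genes higher, and the replicate block called 5 of them and 11 synthetases higher. Calls over all genes rose too. The fit used above called 4348 of 19202 genes higher, total counts 5110, the replicate block 5975, and the joint fit 4636 of 19884. Leaving out 1 library gave 1 to 9 synthetases and 1 to 2 amino acid and stress genes higher. In chromatin RNA, DESeq2 called 5 synthetases lower and the joint fit 4, and the GC correction called 1 synthetase higher and 5 amino acid and stress genes lower. Over all genes, DESeq2 called 3169 of 29439 lower, the joint fit 5464 of 44615 and the GC correction 3186 of 33879. The fit used above called 6822 of 33879 lower. Leaving out 1 library gave 2 to 8 synthetases lower and 0 to 1 higher. For the siPADI2 minus R1810A difference, 7 synthetases differed with total counts, 6 with no filter, 12 with the replicate block and 10 with the GC correction, and 6 to 10 amino acid and stress genes differed with 1 library left out. For chromatin minus poly(A), synthetases differing numbered 5 with RLE, 7 with total counts, 6 with DESeq2 and 8 with the GC correction, and 0 to 16 with 1 library left out. Amino acid and stress genes numbered 12 with total counts, 11 with DESeq2 and 4 to 14 with 1 library left out. The GC correction turned the sign of 10 of 40 members in chromatin RNA, of which VARS (0.0531), SHMT2 (0.0929) and PYCR1 (0.33) had been called, and of 10 of 40 in the chromatin minus poly(A) difference, of which DDIT4 (0.85) was called once corrected. The cause of these shifts was not tested. Called differences over all genes moved with the settings too. For siPADI2 minus R1810A, the replicate block called 3684 positive and 4080 negative differences, against 2343 and 2853 in the fit used above. For chromatin minus poly(A), DESeq2 called 3511 and 3318 of 29552 genes, against 763 and 2829 of 44615. Fits with 1 library left out also rested on fewer libraries.

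The median log2 fold change over all genes moved to 0.141 in chromatin RNA with total counts and to 0.376 in the chromatin minus poly(A) difference with DESeq2, so directions there are relative to the scaling. Labels give the replicate numbers no meaning. Same-numbered poly(A) libraries deviated together with a correlation over genes of 0.1 (siPADI2) and 0.439 (R1810A) over 2 pairs, too few to show pairing, and the chromatin groups share only number 1, so no block could be fitted there. Depth limits the chromatin values, with as few as 13 counts for CHAC1 in a siPADI2 library.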
